A study of Mus musculus with 2 samples.

Results

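The endoplasmic reticulum chaperone-high cells of 2 single-cell libraries are the 664 cells, of 16610 cells kept in all, in which 10 genes for proteins that fold and handle other proteins in the endoplasmic reticulum (ER) were most abundant together. A cell's score was the mean, over Sdf2l1, Derl3, Creld2, Dnajc3, Hspa5, Manf, Pdia4, Pdia6, Hsp90b1 and Hyou1, of the natural log of 1 plus its count per 10000 counted molecules. The 4% of cells with the highest score in each library were taken, which gave 295 of 7383 PHD2-KO cells and 369 of 9227 WT cells. The score was taken from the same cells that are described, so every value of chaperone-high cells against the rest of their library is a description with no test.

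Both libraries came from the established mouse embryonic stem cell line AB2.2, taken on day 4 of a mesendoderm differentiation. The PHD2-KO cells are a knockout for PHD2, the prolyl hydroxylase encoded by Egln1 that marks hypoxia-inducible factors for destruction when oxygen is present, and the WT cells are the same line without the knockout. There was 1 library per genotype, so no test between genotypes was possible and no p-value is given. How many clones or cultures each library holds, and which stretch of Egln1 the knockout affects, is not given in the labels.

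Proteins bound for secretion or for membranes are folded in the ER by chaperones such as BiP, the product of Hspa5, and when unfolded proteins accumulate, the sensors IRE1, PERK and ATF6 start the unfolded protein response. ATF6 and the spliced form of XBP1 switch on genes for chaperones, for protein export and for the degradation of misfolded proteins, while PERK slows translation and favours the production of ATF4 and, after it, CHOP, the product of Ddit3. A classical element through which ATF6 acts on chaperone promoters is the ER stress response element (ERSE), a CCAAT box and a CCACG box held a fixed distance apart.

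The promoters of the score genes are shown first because they share that element. The ERSE was searched on both strands as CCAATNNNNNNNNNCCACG in RefSeq windows of 300 bases (GRCm38.p6), from 250 bases before to 50 bases after each gene's start. It was found in 6 of the 8 score genes that have a window (75%), in 0.233% of 4719 genes measured in both libraries and in 0.137% of all 27025 genes with a window. Manf and Hyou1 have no window in that table, and the Sdf2l1 and Pdia4 windows hold no exact match. The matches, written 5′ to 3′ on the strand where the CCAAT box comes first and with both boxes in capitals, were as follows.
Derl3: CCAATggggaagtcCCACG
Creld2: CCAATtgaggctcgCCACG
Dnajc3: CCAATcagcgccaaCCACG
Hspa5: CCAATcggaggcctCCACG
Pdia6: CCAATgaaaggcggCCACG
Hsp90b1: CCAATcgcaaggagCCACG
Hsp90b1: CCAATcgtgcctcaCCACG
Calr: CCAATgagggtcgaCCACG

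The 2 boxes are the same letters in every line because they were searched for, whereas the 9 bases between them differ from gene to gene. Hsp90b1, which encodes the ER member of the HSP90 family, has 2 matches, on opposite strands. Calr encodes the calcium-binding chaperone calreticulin and is no score gene. It is shown because it was also higher in the chaperone-high cells of both libraries. The sites lay between 212 and 47 bases before the start, that of Hspa5 from -65 to -47.

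Of the 11 genes measured in both libraries whose window holds an ERSE, 6 are score genes. Another 3 of the 11, Calr, Canx for the lectin chaperone calnexin and Syvn1 for the ubiquitin ligase of ER-associated degradation, were higher in the chaperone-high cells of both libraries by at least 1.5-fold. The remaining members of the 11 were Zfp57, higher in the WT library alone, and Hnrnpa3, higher in neither. A shorter element, ERSE-II, searched as ATTGGNCCACG on both strands, was in 7 measured genes. Of these 7, Herpud1, Dnajb11 and Nucb1 were higher in both libraries. Over all 6063 genes measured in both libraries, 1.65% were higher in both. Conversely, of 72 genes with a window that were higher in both, score genes left out, 3 (4.17%) hold an ERSE and 3 an ERSE-II. Most of these 72 thus hold neither exact match. A match is a description of letters in a window and not a site shown to be used, and the score genes were chosen for the function that the element is known for.

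The 250 bases before the start are printed for 4 of these genes to show where the elements sit, with the boxes of the ERSE or ERSE-II in capitals. Hspa5 lies at chr2:34771840-34772089 on the plus strand, Hsp90b1 at chr10:86705445-86705694 on the minus strand, Derl3 at chr10:75893148-75893397 on the plus strand and Herpud1 at chr8:94386179-94386428 on the plus strand. Each stretch ends at the base before the RefSeq start, and a site on the opposite strand reads as its reverse complement. In Hspa5 the capitals also mark 1 match of TGACGTG, the core of the unfolded protein response element, which 2.22% of all windows hold on either strand.
Hspa5: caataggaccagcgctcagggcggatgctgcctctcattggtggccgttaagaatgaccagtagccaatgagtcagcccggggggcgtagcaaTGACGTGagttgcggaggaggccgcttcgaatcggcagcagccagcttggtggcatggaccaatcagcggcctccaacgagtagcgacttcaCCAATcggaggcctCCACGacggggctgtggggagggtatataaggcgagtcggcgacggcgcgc
Hsp90b1: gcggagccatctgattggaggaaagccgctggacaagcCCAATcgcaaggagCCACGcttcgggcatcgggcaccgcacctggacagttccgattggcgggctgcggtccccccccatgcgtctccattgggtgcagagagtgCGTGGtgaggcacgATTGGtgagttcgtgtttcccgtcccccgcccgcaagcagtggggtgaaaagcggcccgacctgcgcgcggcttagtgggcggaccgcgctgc
Derl3: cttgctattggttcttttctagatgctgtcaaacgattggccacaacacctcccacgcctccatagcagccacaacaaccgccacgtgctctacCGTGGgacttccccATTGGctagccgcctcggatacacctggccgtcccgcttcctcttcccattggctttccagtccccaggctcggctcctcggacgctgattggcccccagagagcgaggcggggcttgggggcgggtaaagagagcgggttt
Herpud1: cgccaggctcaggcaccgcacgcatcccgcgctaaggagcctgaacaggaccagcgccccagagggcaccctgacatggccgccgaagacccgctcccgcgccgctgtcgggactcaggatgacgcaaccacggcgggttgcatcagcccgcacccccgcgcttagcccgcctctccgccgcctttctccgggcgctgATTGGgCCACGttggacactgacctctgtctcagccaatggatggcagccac

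The Hspa5 element sits close to the start of transcription, the Hsp90b1 pair sits further upstream, and Herpud1 holds only the compact form, in which 1 base separates the boxes.

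The deposited libraries held 173470962 counted molecules (unique molecular identifiers, UMIs) in 7713 PHD2-KO barcodes and 226179474 UMIs in 9651 WT barcodes. Barcodes were kept with at least 1000 genes and a mitochondrial share of UMIs of no more than 10%. The depth of chaperone-high cells was close to that of the rest. Their median was 20381 UMIs, against 21428 UMIs in the rest, in PHD2-KO, and 20257 UMIs, against 20775 UMIs in the rest, in WT. They summed to 6484220 UMIs in PHD2-KO and 8250721 UMIs in WT. The median share of mitochondrial UMIs was 1.39% in chaperone-high cells, against 1.32% in the rest, in PHD2-KO, and 1.18% against 1.07% in WT. Ribosomal protein genes took 36.0% of UMIs in chaperone-high cells, against 36.4% in the rest, in PHD2-KO, and 35.8% against 37.1% in WT. Cells with a doublet score in the range removed in an alternative made up 4.41% of chaperone-high cells, against 6.25% of the rest, in PHD2-KO, and 1.36% against 7.98% in WT. The libraries shared 18 barcodes, of which 0 were chaperone-high. The label of embryonic stem cells was checked by Pou5f1, which encodes the pluripotency factor OCT4. It was at 117 CPM in PHD2-KO chaperone-high cells, against 112 CPM in the PHD2-KO rest, and at 129.8 CPM in WT chaperone-high cells, against 143 CPM in the WT rest.

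**Figure D1:**
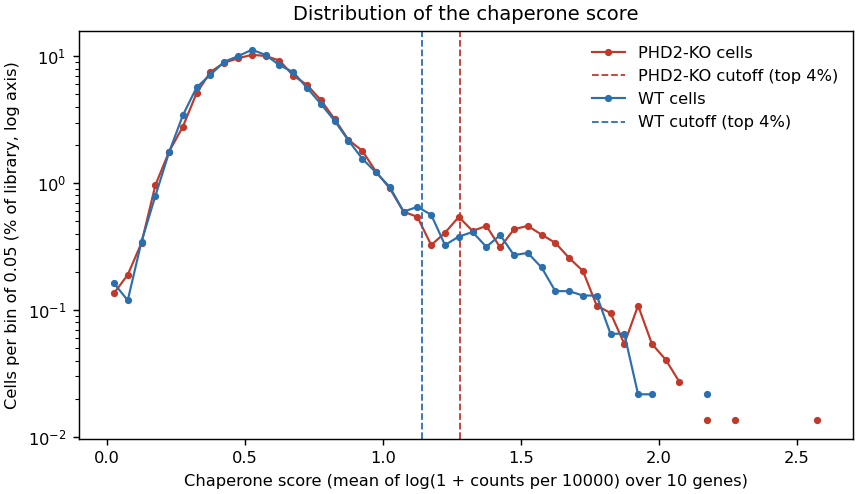
Share of cells (percent of the library, log axis) in bins of 0.05 of the chaperone score for PHD2-KO and WT cells, with the cutoff of the top 4% of each library as a dashed line. The bulk of both libraries has its median near 0.56 in PHD2-KO and 0.55 in WT, and both carry a tail to the right that reaches 2.58 in PHD2-KO and 2.17 in WT.

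The cutoff did not fall at a gap in the score. The lowest chaperone-high score was 1.278 and the next cell outside it 1.277 in PHD2-KO, and the pair was 1.142 and 1.140 in WT. Within 0.05 of the cutoff lay 72 PHD2-KO cells and 114 WT cells, on both sides of it. The group is defined as the upper range of a score. A cutoff at a fixed share usually has such neighbours, so these values cannot show whether the tail holds a separate class. The counts in the tail did not fall evenly from bin to bin. In PHD2-KO the number of cells per bin of 0.05, for bins starting at 1.15 to 1.5, was 24, 30, 40, 31, 34, 23, 32 and 34. In WT it was 60 and 52 in the bins from 1.1 and 1.15, and 30, 35, 38, 29, 36, 25 and 26 in those from 1.2 to 1.5. The plot of the score distribution shows these counts, and whether they differ from an even tail was not tested.

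Because the rule fixes the share at 4%, the libraries can be compared only at a common cutoff. Above the WT cutoff lay 5.16% of PHD2-KO cells (381 of 7383, exact binomial 95% interval 4.67 to 5.69), against the 4% of WT cells that the rule sets. Above the PHD2-KO cutoff lay 2.81% of WT cells (2.48 to 3.16). With every cell thinned to 14000 UMIs, which left out 652 PHD2-KO and 786 WT cells, the shares were 5.07% and 2.86%. These intervals cover counting error only, and with 1 library per genotype the genotype and the library cannot be told apart.

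All 10 score genes were higher in the chaperone-high cells, which the rule fixes. Levels are in CPM, the UMIs of a gene per 1000000 UMIs of the summed cells. Sdf2l1, which keeps ER clients soluble together with BiP and its partners, was at 295 CPM in PHD2-KO chaperone-high cells, against 22.8 CPM in the PHD2-KO rest, and at 235 CPM in WT chaperone-high cells, against 19.4 CPM in the WT rest. Derl3, a membrane protein of ER-associated degradation, was at 45.8 CPM in PHD2-KO chaperone-high cells, against 2.11 CPM in the PHD2-KO rest, and at 52.5 CPM in WT chaperone-high cells, against 4.19 CPM in the WT rest. These genes stood furthest from the rest, Sdf2l1 by 13-fold in PHD2-KO (95% counting interval 12.3 to 13.7) and 12.1-fold in WT (11.5 to 12.8) and Derl3 by 21.7-fold in PHD2-KO (95% counting interval 18.5 to 25.4) and 12.5-fold in WT (11.1 to 14). Both were low in the rest, and Derl3 was the scarcest score gene there.

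The abundant chaperones moved by a narrower range of folds. Hspa5, which encodes BiP, was at 964 CPM in PHD2-KO chaperone-high cells, against 199.7 CPM in the PHD2-KO rest, and at 826 CPM in WT chaperone-high cells, against 178 CPM in the WT rest. Manf, a secreted ER stress protein, was at 1503 CPM in PHD2-KO chaperone-high cells, against 319 CPM in the PHD2-KO rest, and at 1474 CPM in WT chaperone-high cells, against 351 CPM in the WT rest. Hsp90b1 was at 1819.7 CPM in PHD2-KO chaperone-high cells, against 389.6 CPM in the PHD2-KO rest, and at 1482 CPM in WT chaperone-high cells, against 360.4 CPM in the WT rest. The 8 score genes other than Sdf2l1 and Derl3 lay between 4.67-fold and 6.12-fold in PHD2-KO and between 4.02-fold and 5.24-fold in WT. These others are the disulfide isomerases Pdia4 and Pdia6, the isomerase-like Creld2, the J-domain co-chaperone Dnajc3 and the exchange factor Hyou1. The score genes together made up 6185 CPM of chaperone-high cells, against 1237 CPM of the rest, in PHD2-KO, and 5305 CPM, against 1197 CPM of the rest, in WT.

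**Figure D2:**
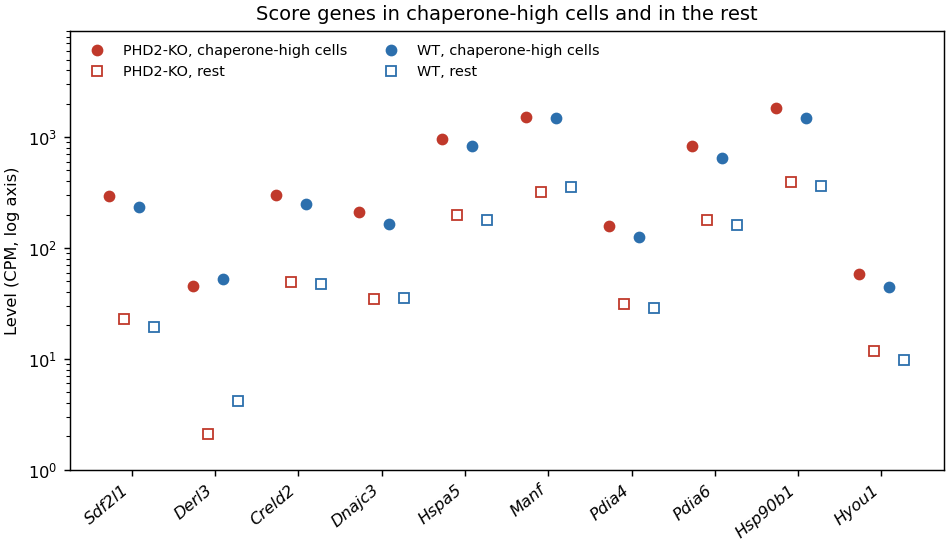
Levels in CPM (log axis) of the 10 score genes in chaperone-high cells (filled circles) and in the rest (open squares) of the PHD2-KO and WT libraries. Each gene is higher in the chaperone-high cells, as the rule requires, with the widest gaps at Sdf2l1 (295 against 22.8 CPM in PHD2-KO) and Derl3 (45.8 against 2.11 CPM in PHD2-KO).

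Each score gene, when left out of the score, was still higher in the cells that the other 9 chose. When each gene was left out of the score and the top 4% were chosen by the other 9, between 93.6% and 97.6% of the PHD2-KO chaperone-high cells were chosen again, and between 94.9% and 96.7% of the WT ones. The shortened score shares 9 genes with the full one, so this overlap follows largely from the rule. The gene left out was still 12.4-fold higher in PHD2-KO and 11.4-fold higher in WT for Sdf2l1, and 20.1-fold and 11.4-fold higher for Derl3. The 10 genes were chosen together, with earlier results of these data known. These folds are therefore descriptions too and give the group no independent support. With cells thinned to 14000 UMIs, a median of 9 of the 10 genes had a UMI in a chaperone-high cell, against 5 in a cell of the rest, in both libraries. A Sdf2l1 UMI was in 98.5% of PHD2-KO chaperone-high cells, against 25.3% of the PHD2-KO rest, and in 93.7% of WT chaperone-high cells, against 22.3% of the WT rest. In the same cells without thinning, 98.6% of PHD2-KO chaperone-high cells and 35.5% of the PHD2-KO rest had one. These detection values are of the genes that the rule selected on, so they are descriptions. The part of free RNA in such a share was not tested.

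Outside the score, a gene was called higher or lower where its level was at least 10 CPM in the higher of the 2 sets of cells and the ratio was at least 1.5-fold on the log2(CPM + 1) scale, which understates the ratio of low genes. In PHD2-KO, 212 of 6735 genes were higher in chaperone-high cells (3.15%) and 120 lower (1.78%). In WT, 155 of 6192 were higher (2.5%) and 31 lower (0.501%). Of 6063 genes measured in both libraries, 100 were higher in both (1.65%) and 16 lower in both (0.264%). Of the 100, 10 were score genes, 49 stood in another list of the secretory pathway or its stress response, 5 in the sterol or secreted and matrix lists, and 36 in no list. Without the score genes, the shared genes were 44.6% of the 202 called higher in PHD2-KO and 62.1% of the 145 in WT. No gene was higher in PHD2-KO and lower in WT, and 1, Rhox5, was lower in PHD2-KO and higher in WT. Across 6053 genes without the score genes the log2 ratios of the libraries had a Pearson r of 0.65, as a description across genes.

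**Figure D3:**
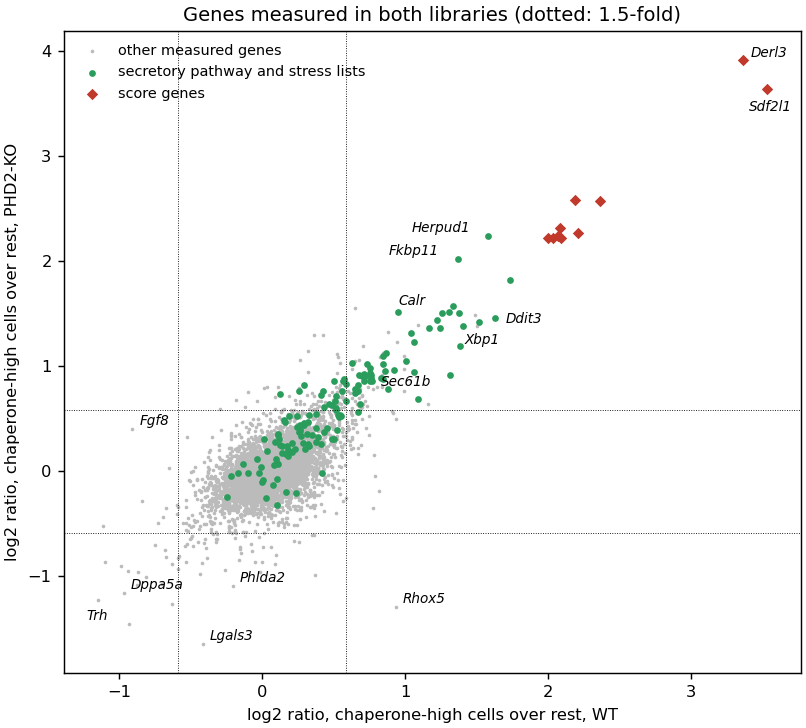
Log2 ratio of chaperone-high cells over the rest in PHD2-KO (vertical) and in WT (horizontal) for genes measured in both libraries. Score genes are red diamonds, genes of the secretory pathway and stress lists green points and other genes grey, and the green points extend along the diagonal to Herpud1 while Rhox5 stands alone below and to the right.

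Among the factors that run the unfolded protein response, Ddit3 and Xbp1 were the ones called higher, 2 of the 7 members measured in each library and 0 lower. The median log2 ratio of the 7 was -0.08 in PHD2-KO and 0.11 in WT, against 0.0015 in PHD2-KO and 0.048 in WT over all measured genes. The PHD2-KO median lay above 0 under 6 alternatives, at 0.019 to 0.44. Ddit3, which encodes the transcription factor CHOP, was at 51.2 CPM in PHD2-KO chaperone-high cells, against 17.9 CPM in the PHD2-KO rest, and at 70.9 CPM in WT chaperone-high cells, against 22.3 CPM in the WT rest. Xbp1, whose messenger RNA is spliced by IRE1, was at 35 CPM in PHD2-KO chaperone-high cells, against 12.5 CPM in the PHD2-KO rest, and at 26.3 CPM in WT chaperone-high cells, against 8.53 CPM in the WT rest. Ddit3 was higher by 2.85-fold in PHD2-KO (95% counting interval 2.54 to 3.2) and 3.18-fold in WT (2.92 to 3.47), and Xbp1 by 2.81-fold in PHD2-KO (95% counting interval 2.44 to 3.22) and 3.08-fold in WT (2.67 to 3.55). The counts do not separate spliced from unspliced Xbp1.

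The other regulators moved little or were too scarce. Atf4 was at 236 CPM in PHD2-KO chaperone-high cells, against 174 CPM in the PHD2-KO rest, and at 267 CPM in WT chaperone-high cells, against 222 CPM in the WT rest. Its ratio stayed under 1.5-fold in both libraries. The sensor genes Ern1 (IRE1), Eif2ak3 (PERK) and Atf6 stayed under 10 CPM in the chaperone-high cells and in the rest of both libraries, with Atf6 at 9.56 CPM in PHD2-KO chaperone-high cells, against 5.68 CPM in the PHD2-KO rest, and at 9.21 CPM in WT chaperone-high cells, against 6.31 CPM in the WT rest. Creb3l2, for a membrane-bound transcription factor processed in the Golgi, was also under 10 CPM. It was at 8.48 CPM in PHD2-KO chaperone-high cells, against 2.27 CPM in the PHD2-KO rest, and at 3.51 CPM in WT chaperone-high cells, against 0.934 CPM in the WT rest. Nfya, Nfyb and Nfyc, the subunits of the factor that binds CCAAT boxes, were not called, with Nfyb at 55.2 CPM in PHD2-KO chaperone-high cells, against 65.7 CPM in the PHD2-KO rest, and at 62.4 CPM in WT chaperone-high cells, against 74 CPM in the WT rest.

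The other ER chaperones and folding enzymes were the list with the most members called, 15 of 23 measured in each library and 0 lower, with a median log2 ratio of 0.93 in PHD2-KO and 0.68 in WT. Fkbp11, a prolyl isomerase of secretory cells, was at 239 CPM in PHD2-KO chaperone-high cells, against 58.1 CPM in the PHD2-KO rest, and at 231 CPM in WT chaperone-high cells, against 89 CPM in the WT rest. Calr was at 748 CPM in PHD2-KO chaperone-high cells, against 262 CPM in the PHD2-KO rest, and at 558 CPM in WT chaperone-high cells, against 233 CPM in the WT rest. Pdia3, the disulfide isomerase that works with the lectin chaperones, was at 432 CPM in PHD2-KO chaperone-high cells, against 152 CPM in the PHD2-KO rest, and at 327 CPM in WT chaperone-high cells, against 125 CPM in the WT rest. Fkbp11 was higher by 4.11-fold in PHD2-KO (95% counting interval 3.9 to 4.34), the highest ratio of the list there, and by 2.6-fold in WT (2.48 to 2.72). The thioredoxin-like Txndc11 was higher by 2.72-fold in WT. Dnajb11, Dnajb9 and Dnajc10, all J-domain partners of BiP, were higher in both libraries, as were Canx, P4hb, Pdia5, Erp44 and Serp1. Not called in either library were the peroxiredoxin Prdx4, the oxidase Ero1l and Erp29, with Prdx4 at 226 CPM in PHD2-KO chaperone-high cells, against 219 CPM in the PHD2-KO rest, and at 216 CPM in WT chaperone-high cells, against 218 CPM in the WT rest.

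In ER-associated degradation, which pulls misfolded proteins back to the cytosol, 7 of 17 members were higher in PHD2-KO and 8 of 17 in WT, and 0 were lower. The list medians were 0.55 in PHD2-KO and 0.38 in WT. Herpud1, a membrane protein of the ligase complex, was at 199 CPM in PHD2-KO chaperone-high cells, against 41.3 CPM in the PHD2-KO rest, and at 171 CPM in WT chaperone-high cells, against 56.6 CPM in the WT rest. It had the highest ratio outside the score genes in PHD2-KO, 4.81-fold in PHD2-KO (95% counting interval 4.53 to 5.11) and 3.02-fold in WT (2.86 to 3.19). Syvn1, its partner Sel1l and the mannosidase-like Edem1 were higher in both libraries. Syvn1 was at 18.5 CPM in PHD2-KO chaperone-high cells, against 5.56 CPM in the PHD2-KO rest, and at 12.4 CPM in WT chaperone-high cells, against 4.3 CPM in the WT rest. Vcp, the ATPase that extracts the substrates, was not called, and was at 276 CPM in PHD2-KO chaperone-high cells, against 219 CPM in the PHD2-KO rest, and at 214 CPM in WT chaperone-high cells, against 176 CPM in the WT rest.

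Entry into the ER and the first modification of its clients were higher as well. Of 19 translocon and signal peptidase genes, 12 were higher in PHD2-KO and 6 in WT, 0 were lower, and all 19 had ratios above 1 in both libraries. Sec61b, a subunit of the channel itself, was at 1431 CPM in PHD2-KO chaperone-high cells, against 726 CPM in the PHD2-KO rest, and at 1155 CPM in WT chaperone-high cells, against 683 CPM in the WT rest. Sec11c, a catalytic subunit of the signal peptidase, was at 94.4 CPM in PHD2-KO chaperone-high cells, against 36 CPM in the PHD2-KO rest, and at 79.9 CPM in WT chaperone-high cells, against 34.9 CPM in the WT rest. Of 20 N-glycosylation genes, 11 were higher in PHD2-KO and 10 in WT, with medians of 0.72 and 0.60. They included subunits of the oligosaccharyl transferase such as Stt3a, Ddost and Ostc. Ostc was at 537 CPM in PHD2-KO chaperone-high cells, against 265 CPM in the PHD2-KO rest, and at 459.7 CPM in WT chaperone-high cells, against 276 CPM in the WT rest. Gfpt1 and Uap1, enzymes that make the sugar donor, were called in both libraries.

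Traffic onward to the Golgi and calcium handling followed with smaller ratios. In the ER to Golgi list, 11 of 20 members were higher in PHD2-KO and 5 of 18 in WT, with medians of 0.61 and 0.48. Surf4, a cargo receptor, was at 126 CPM in PHD2-KO chaperone-high cells, against 50.1 CPM in the PHD2-KO rest, and at 90.1 CPM in WT chaperone-high cells, against 43.2 CPM in the WT rest. The retrieval receptors Kdelr1 and Kdelr2 were not called. Of the calcium list, the same 3 members were higher in both libraries, out of 10 measured in PHD2-KO and 9 in WT. They were the calcium-binding Nucb1 and Nucb2 and the ER calcium pump Atp2a2. Nucb2 stood out at 3.99-fold in PHD2-KO (95% counting interval 3.33 to 4.76) and 3.94-fold in WT (3.23 to 4.78). It was at 22.5 CPM in PHD2-KO chaperone-high cells, against 5.64 CPM in the PHD2-KO rest, and at 14.7 CPM in WT chaperone-high cells, against 3.72 CPM in the WT rest.

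Genes known to follow ATF4 and CHOP were called less widely. In PHD2-KO, 5 of 24 were higher, namely Trib3, Chac1, Cebpb, Slc7a11 and Slc7a3, and in WT 1 of 24 was, the cystine transporter Slc7a11. Over all measured genes, 3.15% were called higher in PHD2-KO and 2.5% in WT. The 1 call in WT thus does not set the list apart from other genes there. The list medians were 0.31 in PHD2-KO and 0.19 in WT. Chac1, a glutathione-degrading enzyme, was at 57.1 CPM in PHD2-KO chaperone-high cells, against 31.8 CPM in the PHD2-KO rest, and at 69 CPM in WT chaperone-high cells, against 56.1 CPM in the WT rest. Asns, asparagine synthetase, was at 274 CPM in PHD2-KO chaperone-high cells, against 215 CPM in the PHD2-KO rest, and at 269 CPM in WT chaperone-high cells, against 249 CPM in the WT rest.

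Chaperones of other compartments were not called. Of the cytosolic heat shock genes, 0 of 11 in PHD2-KO and 0 of 10 in WT were called in either direction, with medians of -0.08 and -0.05. Hspa8, the constitutive HSP70, was at 1529 CPM in PHD2-KO chaperone-high cells, against 1512 CPM in the PHD2-KO rest, and at 1327 CPM in WT chaperone-high cells, against 1361 CPM in the WT rest. Of the mitochondrial chaperones and proteases, 0 of 11 were called in each library, with medians of -0.09 and -0.01. Hspd1, the mitochondrial chaperonin, was at 723 CPM in PHD2-KO chaperone-high cells, against 783 CPM in the PHD2-KO rest, and at 695 CPM in WT chaperone-high cells, against 704 CPM in the WT rest. Differences smaller than 1.5-fold are not counted here. Over all measured genes, 3.15% were called higher and 1.78% lower in PHD2-KO, and 2.5% and 0.501% in WT. At those shares lists of this size hold few calls, so the counts of 0 do not set them apart from other genes.

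Sterol synthesis, whose enzymes sit in the ER membrane, was the list outside the secretory pathway with the highest median, 0.56 in PHD2-KO and 0.55 in WT. It had 6 of 12 members higher in PHD2-KO and 5 of 12 in WT. Hmgcs1, Sqle and Cyp51 were higher in both. Hmgcs1, which makes the precursor of mevalonate, was at 61.7 CPM in PHD2-KO chaperone-high cells, against 36 CPM in the PHD2-KO rest, and at 41.9 CPM in WT chaperone-high cells, against 26.5 CPM in the WT rest. Of the secreted and matrix genes, which are cargo of the pathway, 3 of 14 were higher and 1 lower in PHD2-KO, and 2 of 13 were higher and 1 lower in WT. The list medians were 0.026 in PHD2-KO and 0.28 in WT, where 11 of 13 members had ratios above 1. Their summed level was 775 CPM in chaperone-high cells, against 779 CPM in the rest, in PHD2-KO, and 674 CPM, against 559 CPM in the rest, in WT. The laminin gene Lamb1 and the collagen chaperone Serpinh1 were higher in both, whereas fibronectin, Fn1, was lower in PHD2-KO.

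Cell cycle, p53 and dissociation genes gave few calls. Calls were also few over all measured genes, at 3.15% higher and 1.78% lower in PHD2-KO and 2.5% and 0.501% in WT. Counts this small do not set the lists apart from other genes. Of 20 S phase genes 1, Cdc6, was higher in PHD2-KO, and of 19 in WT 0 were, while 0 of 20 G2 and M phase genes were called in either library. Of 11 p53 and apoptosis genes 0 were called in PHD2-KO and 1, Gadd45a, was higher in WT. None of the 11 immediate early genes that cell dissociation can induce was called in either library, with medians of -0.12 in PHD2-KO and 0.18 in WT. Of the 36 genes higher in both libraries and in no list, several that act at the ER are named here after their values were seen. They include the ER transporter Slc35b1, the malectin gene Mlec, the ribosome-binding Rrbp1, the export factor Mia3 and the ligase gene Ufl1. The transcription factor gene Atf5, also of the 36 and named after its values were seen, is not counted as acting at the ER. Slc35b1 was at 103 CPM in PHD2-KO chaperone-high cells, against 38.7 CPM in the PHD2-KO rest, and at 86.2 CPM in WT chaperone-high cells, against 39.8 CPM in the WT rest. Atf5 was at 88.1 CPM in PHD2-KO chaperone-high cells, against 34.5 CPM in the PHD2-KO rest, and at 79.1 CPM in WT chaperone-high cells, against 42.5 CPM in the WT rest. Cdk2ap2, which the leading-gene rule named, was at 83.6 CPM in PHD2-KO chaperone-high cells, against 31.4 CPM in the PHD2-KO rest, and at 82.9 CPM in WT chaperone-high cells, against 28.6 CPM in the WT rest.

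**Figure D4:**
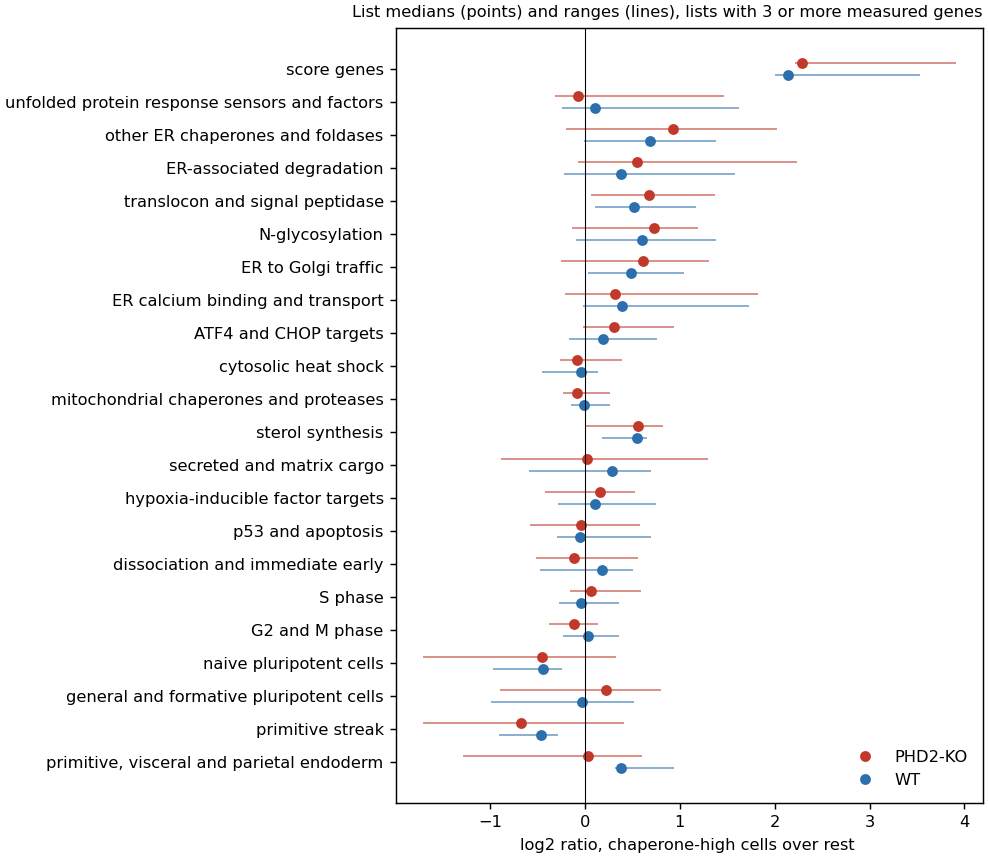
Median log2 ratio of chaperone-high cells over the rest (points) and the lowest to highest member (lines) for each gene list with at least 3 measured genes in both libraries, PHD2-KO above WT. The chaperone, translocon, glycosylation and sterol lists lie to the right of 0, the cytosolic heat shock and mitochondrial chaperone lists lie near 0, and the naive pluripotent and primitive streak lists lie to the left.

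The genes did not all follow the score in the same way below its top. Cells were ordered by score, and levels were read in the lowest 50% of cells, in the ranges 50 to 80%, 80 to 92% and 92 to 96%, and in the top ranges 96 to 98%, 98 to 99% and 99% upward. Calr climbed through every range, from 193 and 287 to 380 and 520 CPM below the cutoff and then 664, 755 and 929 CPM above it in PHD2-KO. In WT its levels in the same order were 170, 258, 350, 430, 475, 605 and 690 CPM. Xbp1 likewise was higher in each range up to the cutoff in both libraries.

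Ddit3 showed another shape. Its levels were 19.6, 14.8 and 15.9 CPM in the lower 92% of PHD2-KO cells, then 28.1, 44.2, 46.2 and 71.8 CPM. In WT they were 23.8 CPM in the lowest 50% and 19.6 CPM at 80 to 92%, then 30.7, 60.6, 80.3 and 83.3 CPM. Herpud1 was at 38.8 and 36.3 CPM in the lower 80% of PHD2-KO cells and at 51.0 and 56.5 CPM in those of WT, and reached 263 CPM in the top 1% of PHD2-KO cells and 227 CPM in that of WT cells. Ddit3 was thus lower at 80 to 92% than in the lowest 50% of cells in both libraries, while Calr and Xbp1 were higher there. The ranges were cut on the score itself, so the shapes are descriptions.

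**Figure D5:**
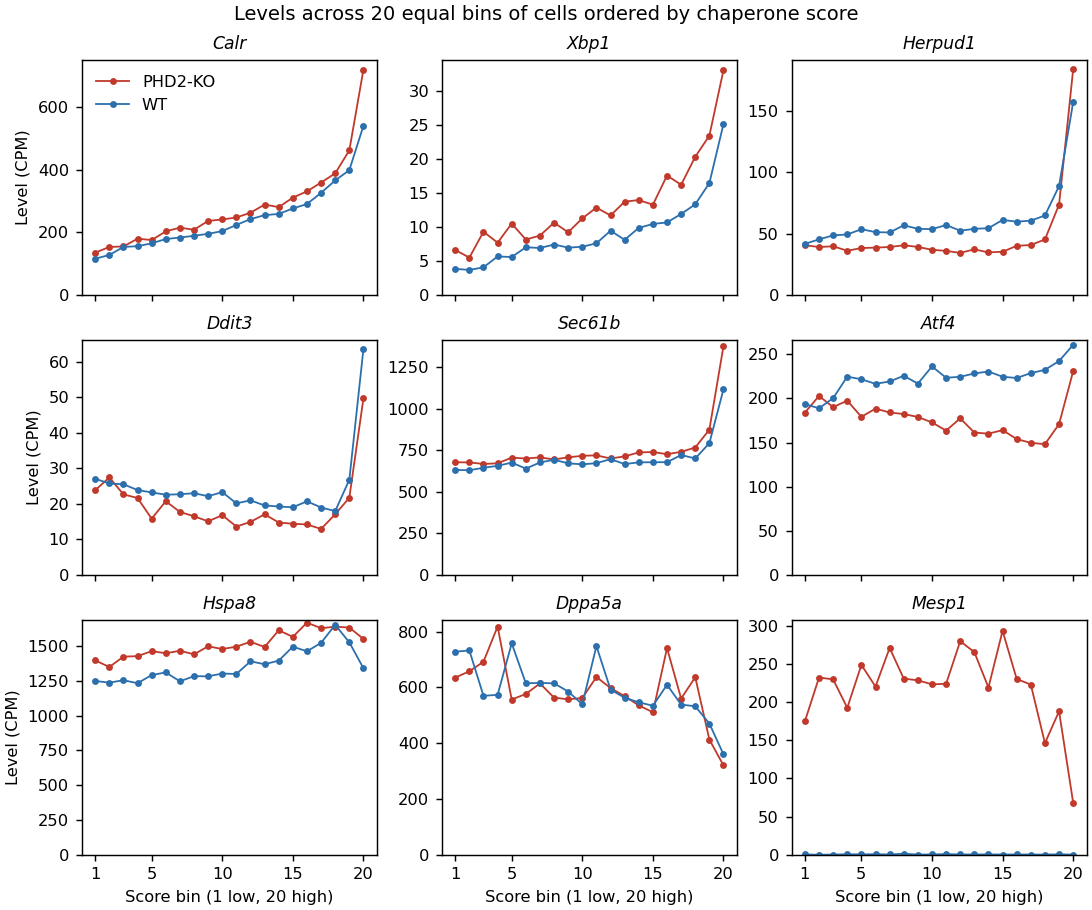
Levels in CPM of 9 genes over 20 bins of equal cell number ordered by chaperone score, for PHD2-KO and WT. Calr and Xbp1 climb along the whole range, and Herpud1 and Sec61b change most in the last bins. Ddit3 is lower in the middle bins than in the first and highest in the last. Hspa8 rises from 1396 CPM in bin 1 to 1667 CPM in bin 16 in PHD2-KO, and from 1248 CPM to 1651 CPM in bin 18 in WT. In bin 20 it is at 1550 CPM in PHD2-KO and 1339 CPM in WT. Dppa5a in both libraries and Mesp1 in PHD2-KO are lower in the last bins, with Mesp1 near 0 throughout WT.

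Genes lower in the chaperone-high cells were fewer, and markers of cell identity were among them. Dppa5a, a gene of naive pluripotent cells, was at 268 CPM in PHD2-KO chaperone-high cells, against 599 CPM in the PHD2-KO rest, and at 307 CPM in WT chaperone-high cells, against 600.4 CPM in the WT rest. Tdgf1, the Nodal co-receptor, was at 170.1 CPM in PHD2-KO chaperone-high cells, against 319 CPM in the PHD2-KO rest, and at 86.1 CPM in WT chaperone-high cells, against 172 CPM in the WT rest. Trh, a hormone precursor listed with definitive endoderm, was at 52.9 CPM in PHD2-KO chaperone-high cells, against 125 CPM in the PHD2-KO rest, and at 32.2 CPM in WT chaperone-high cells, against 72.7 CPM in the WT rest. Nefl, a neurofilament gene, was at 99.6 CPM in PHD2-KO chaperone-high cells, against 182 CPM in the PHD2-KO rest, and at 96 CPM in WT chaperone-high cells, against 206 CPM in the WT rest. All 4 were lower in both libraries. The list of general and formative pluripotency genes did not share the fall of Tdgf1 as a whole. In PHD2-KO, 9 of its 13 measured genes had ratios above 1, and the median log2 ratio was 0.22. Calls there went upward for 3 genes and downward for 1. In WT, 6 of 13 had ratios above 1, the median was -0.04, and calls went upward for 0 genes and downward for 1. Dppa5a was lowest in the highest range, at 183 CPM in the top 1% of PHD2-KO cells and 203 CPM in that of WT cells. Other genes lower in both that the leading-gene rule named included Etv4, Phlda1, Snai3 and Rhox13.

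Several mesoderm and streak markers of the PHD2-KO cells were lower in its chaperone-high cells than in the rest. Of the nascent and lateral mesoderm markers, 4 of the 4 measured in PHD2-KO were lower, and of 11 streak markers 6 were lower and 0 higher. Over all measured genes, 1.78% were called lower in PHD2-KO and 0.501% in WT. Mesp1, a factor of nascent mesoderm, was at 68.8 CPM in PHD2-KO chaperone-high cells, against 227 CPM in the PHD2-KO rest. T, the streak factor brachyury, was at 191 CPM in PHD2-KO chaperone-high cells, against 329 CPM in the PHD2-KO rest. Over the 20 score bins of PHD2-KO, T was at 202 CPM in bin 1, 425 CPM in bin 18 and 212 CPM in bin 20. Its level in the top bin was thus close to that in the lowest. Mixl1, a streak homeobox factor, was at 28.8 CPM in PHD2-KO chaperone-high cells, against 77 CPM in the PHD2-KO rest. Fgf8, in contrast, was at 229 CPM in PHD2-KO chaperone-high cells, against 173 CPM in the PHD2-KO rest, and was not called. In WT, where Mesp1 was at 0.242 CPM in chaperone-high cells and 0.414 CPM in the rest, 2 of 5 measured streak markers, Fgf8 and Fst, were lower. The summed level of the mesoderm list was 312 CPM in chaperone-high cells, against 760 CPM in the rest, in PHD2-KO, and 147 CPM, against 173 CPM in the rest, in WT.

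The share of chaperone-high cells was therefore read in classes of PHD2-KO cells, added after the data were seen and made by UMIs in cells thinned to 14000. It was 2.42% of the 2233 cells with a Mesp1 UMI (exact binomial 95% interval 1.82 to 3.14), 3.90% of the 3696 cells with a T UMI and no Mesp1 UMI (3.30 to 4.57), and 9.10% of the 802 cells with neither (7.20 to 11.3). In WT it was 1.28% of 547 cells with a T UMI and no Mesp1 UMI (0.516 to 2.62) and 4.15% of 7855 cells with neither (3.72 to 4.61). A T UMI was in 83.6% of the PHD2-KO rest and in 6.69% of the WT rest. Within each PHD2-KO class, without thinning, the pathway lists had medians above 0. The other ER chaperones had medians of 0.90, 0.83 and 0.92 in the Mesp1, T-only and neither classes, and the translocon list 0.68, 0.60 and 0.78. The heat shock list had -0.06, -0.10 and -0.19. The primitive streak list had -0.32, -0.32 and -0.24, beside -0.67 over all PHD2-KO cells. A median of the nascent and lateral mesoderm list was available in the Mesp1 class alone, at -1.33. Fgf8 was at 273 against 181 CPM, 233 against 183 CPM and 136 against 43.7 CPM, in the same order of classes. Herpud1 was at 173 CPM, against 43.0 CPM in the rest of the class, with a Mesp1 UMI, at 211 against 39.0 CPM with T only, and at 204 against 46.6 CPM with neither. The class with neither UMI differed in other lists and in its calls. Called higher and lower were 390 and 179 genes with a Mesp1 UMI, 239 and 121 with T only, and 513 and 671 with neither. The naive pluripotent list had medians of -0.69, -0.43 and -1.71, and the immediate early list -0.01, -0.13 and -0.62, in the same order. The classes held 81, 158 and 56 chaperone-high cells, and the differences between them were not tested. Dppa5a was lower in each, at 211 against 483 CPM, 295 against 579 CPM and 283 against 1498 CPM, in the same order of classes.

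Lists of markers of other cell types were read by their sums and calls. The summed 2-cell-like list was at 0.308 CPM in chaperone-high cells, against 11.5 CPM in the rest, in PHD2-KO, and 0.727 CPM, against 8.08 CPM in the rest, in WT, with 7 and 6 of its 9 genes found at 0 in the chaperone-high cells. The fibroblast list summed to 6.17 CPM, against 10.9 CPM in the rest, in PHD2-KO, and 3.15 CPM, against 2.72 CPM in the rest, in WT, with 4 and 3 of its 8 genes at 0. The endoderm list with Apoe, Sparc and Rhox5 summed to 1019 CPM, against 737 CPM in the rest, in PHD2-KO, and 1116 CPM, against 865 CPM in the rest, in WT, with 5 and 4 of its 13 genes at 0. Of its 3 measured genes, 1, Apoe, was higher and 1, Rhox5, lower in PHD2-KO, and 1, Rhox5, was higher in WT. Most of that sum was Apoe, which was at 842 CPM in PHD2-KO chaperone-high cells, against 555 CPM in the PHD2-KO rest, and at 833 CPM in WT chaperone-high cells, against 638 CPM in the WT rest. The definitive endoderm list summed to 58.6 CPM, against 132 CPM in the rest, in PHD2-KO, and 34.5 CPM, against 75.6 CPM in the rest, in WT, nearly all of it Trh. The trophoblast list summed to 64.9 CPM, against 109 CPM, in PHD2-KO and 30.7 CPM, against 30.0 CPM, in WT. The neuroectoderm sums were 46.0 CPM against 43.0 CPM and 56.4 CPM against 57.2 CPM, and the haemato-endothelial sums 52.0 CPM against 61.8 CPM and 10.4 CPM against 14.9 CPM, in PHD2-KO and in WT in each case.

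Between the genotypes, the chaperone-high cells were compared as sums of 295 PHD2-KO and 369 WT cells. Of 6699 genes, 539 were higher in PHD2-KO (8.05%) and 157 lower (2.34%). In the rest of both libraries 587 of 6566 were higher (8.94%) and 123 lower (1.87%). Under median-of-ratios scaling the chaperone-high comparison gave 318 higher and 290 lower, and it moved the median of all genes by -0.13 on the log2 scale. None of the 10 score genes was called between the genotypes. Their median log2 ratio was 0.31 in chaperone-high cells, beside 0.09 over all genes, and 0.16 where both libraries were cut at the WT cutoff. Under median-of-ratios scaling it was 0.19, beside -0.04 over all genes. The intervals below cover counting error and not the choice of scaling. The direction of the smaller ratios can depend on that choice. Hspa5 was at 964 CPM in PHD2-KO chaperone-high cells, against 826 CPM in WT chaperone-high cells, a ratio of 1.17-fold (1.13 to 1.21) between the chaperone-high cells and 1.12-fold (1.11 to 1.14) between the rest of both libraries. Derl3 went the other way, at 45.8 CPM in PHD2-KO chaperone-high cells, against 52.5 CPM in WT chaperone-high cells, with a ratio of 0.873-fold (0.75 to 1.01) between the chaperone-high cells and 0.504-fold (0.444 to 0.57) between the rest of both libraries. With both libraries cut at the WT cutoff, the ratio was 1.07-fold (1.03 to 1.1) for Hspa5 and 0.746-fold (0.645 to 0.863) for Derl3.

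The stress factors divided between the genotypes. Ddit3 was at 51.2 CPM in PHD2-KO chaperone-high cells, against 70.9 CPM in WT chaperone-high cells, a ratio of 0.722-fold (0.629 to 0.828) between the chaperone-high cells and 0.806-fold (0.77 to 0.844) between the rest of both libraries. Xbp1 was at 35 CPM in PHD2-KO chaperone-high cells, against 26.3 CPM in WT chaperone-high cells, a ratio of 1.33-fold (1.1 to 1.61) between the chaperone-high cells and 1.46-fold (1.37 to 1.56) between the rest of both libraries. Neither ratio reached 1.5-fold in the chaperone-high cells. Cut at the common WT cutoff, the ratio was 0.688-fold (0.605 to 0.782) for Ddit3 and 1.24-fold (1.04 to 1.49) for Xbp1. Of 24 ATF4 and CHOP targets 1, the arginine transporter Slc7a3, was lower in PHD2-KO chaperone-high cells, and in the rest 6 of 23 were lower and 1 higher. Fkbp11 was called lower in PHD2-KO in the rest and not in the chaperone-high cells, and Herpud1 was called in neither. Herpud1 had a ratio of 1.16-fold (1.08 to 1.25) between the chaperone-high cells and 0.729-fold (0.708 to 0.751) between the rest of both libraries. Fkbp11 had a ratio of 1.03-fold (0.965 to 1.11) between the chaperone-high cells and 0.653-fold (0.637 to 0.669) between the rest of both libraries. With both libraries cut at the WT cutoff, the ratio between the chaperone-high cells was 1.06-fold (0.985 to 1.14) for Herpud1 and 0.917-fold (0.86 to 0.979) for Fkbp11. A difference between these ratios was not tested.

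Hypoxia-inducible factor targets were higher in PHD2-KO inside and outside the chaperone-high cells. Of 14 measured targets, 9 were higher in PHD2-KO chaperone-high cells and 0 lower, with a median log2 ratio of 1.01, and in the rest 7 of 13 were higher with a median of 0.76. Ldha, lactate dehydrogenase, was at 1487 CPM in PHD2-KO chaperone-high cells, against 566 CPM in WT chaperone-high cells, a ratio of 2.63-fold (2.54 to 2.72) between the chaperone-high cells and 2.17-fold (2.16 to 2.19) between the rest of both libraries. Ddit4, an inhibitor of growth signalling, was at 72.6 CPM in PHD2-KO chaperone-high cells, against 21.2 CPM in WT chaperone-high cells, a ratio of 3.42-fold (2.87 to 4.1) between the chaperone-high cells and 2.98-fold (2.86 to 3.1) between the rest of both libraries. Against the rest of their own library, 0 of 14 targets were called in PHD2-KO chaperone-high cells and 1 of 10, the glucose transporter Slc2a1, in WT. Over all measured genes, 3.15% were called higher in PHD2-KO and 2.5% in WT, so a list of this size holds few calls. Egln1 itself was at 14.8 CPM in PHD2-KO chaperone-high cells, against 19 CPM in WT chaperone-high cells, and because the position of the lesion is not stated, its level does not check the label.

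Between the chaperone-high cells of the genotypes, the highest ratios at 50 CPM or more were those of Mesp1, T, Sp5, Fgf8 and Ifitm1, and the lowest those of Utf1, Ppp1r1a, Acta1, Sfn and Pou3f1. T was at 191 CPM in PHD2-KO chaperone-high cells, against 2.3 CPM in WT chaperone-high cells, a ratio of 82.8-fold (52.8 to 138) between the chaperone-high cells and 56.5-fold (53.4 to 59.8) between the rest of both libraries. Mesp1 rested on 446 UMIs in PHD2-KO and 2 UMIs in WT, at 68.8 CPM in PHD2-KO chaperone-high cells, against 0.242 CPM in WT chaperone-high cells. Fgf8 was at 229 CPM in PHD2-KO chaperone-high cells, against 20.7 CPM in WT chaperone-high cells, a ratio of 11.1-fold (9.44 to 13) between the chaperone-high cells and 4.35-fold (4.25 to 4.46) between the rest of both libraries. Utf1, a pluripotency chromatin factor, was at 81.4 CPM in PHD2-KO chaperone-high cells, against 322 CPM in WT chaperone-high cells, a ratio of 0.253-fold (0.23 to 0.278) between the chaperone-high cells and 0.238-fold (0.234 to 0.242) between the rest of both libraries.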

How the data were processed

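The transcripts of single cells were counted in droplets (10x Genomics), in 1 PHD2-KO and 1 WT library. The authors deposited whole-number counts of UMIs per gene and cell, not normalized, which Cell Ranger 4.0.0 wrote per the file headers. Per the submitters' processing notes, mm10, Cell Ranger and Seurat were used. Aligner settings and sequencing depth are not stated there. Groups came from the sample titles.

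From these counts, cells with at least 1000 genes and at most 10% mitochondrial UMIs were scored, and UMIs were summed over the top 4% and over the rest of each library with Python 3.11.15, numpy 2.4.6, scipy 1.17.1, pandas 2.3.3 and scanpy 1.11.5. Log2 ratios and calls used a pseudocount of 1 CPM, and folds none. Levels and folds carry exact Poisson and conditional binomial 95% intervals, shares exact Clopper-Pearson ones. All cover counting error only. The calls were tested on simulated counts. Scrublet's own threshold marked 1 PHD2-KO and 0 WT cells and was not used. An alternative removed the 456 PHD2-KO and 712 WT cells with the highest doublet scores instead.

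The members and gene lists were chosen with earlier results of these data known. Named genes were the score genes, the unfolded protein response list, the extremes and the most abundant member of each other list, and the 10 highest and lowest ratios per library at 20 CPM or more. The 5 largest differences of ratios each way, and of PHD2-KO over WT at 50 CPM or more, were added. Of the listed symbols, 4 were not found. Alternatives changed the score, its cutoff, the cell and level filters, depth, scaling and fold.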

Additional observations from a re-analysis of the deposited data

Results flagged for a closer look

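Rhox5, a homeobox gene of the X chromosome, was the 1 gene called in opposite directions in the libraries. It was at 3.70 CPM in PHD2-KO chaperone-high cells, against 10.5 CPM in the PHD2-KO rest, and at 13.2 CPM in WT chaperone-high cells, against 6.43 CPM in the WT rest. The log2 ratio of chaperone-high cells over the rest was 2.23 lower in PHD2-KO than in WT (PHD2-KO minus WT -2.23). The difference was not tested, because there was 1 library per genotype, and the PHD2-KO level rests on 24 UMIs.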

How the results depend on the processing

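No paired analysis was possible because each genotype had 1 library and no test was made. Over 5083 alternative values for 353 results, 4544 stayed within the set limits, 539 moved beyond them, and 0 called genes or values changed direction. The sign differed from the reported one in 168 values that were not called, 93 of single genes and 75 of list medians, which were 22 of the 67 medians, all reported within 0.23 of 0. Median-of-ratios scaling turned 6 list medians, 5 of them PHD2-KO over WT, among these secreted and matrix cargo to -0.07, sterol synthesis to -0.10 and S phase to -0.10. Counts of genes that moved by over 1.5 times are given here as chaperone-high cells against the rest, higher and lower. With the top 2%, PHD2-KO had 193 lower and WT 295 higher and 59 lower, and with the top 8% PHD2-KO had 108 and 33 and WT 69 and 8. A minimum of 5 CPM gave 196 lower in PHD2-KO and 62 lower in WT, and one of 50 CPM gave 85 and 23 in PHD2-KO and 56 and 5 in WT. A 2-fold limit gave 59 and 33 in PHD2-KO and 36 and 3 in WT. Median-of-ratios scaling gave 47 lower in WT. For PHD2-KO over WT within chaperone-high cells, the top 2% gave 273 lower, median-of-ratios scaling 318 higher and 290 lower, 5 CPM 884 and 236, 50 CPM 100 and 52, and a 2-fold limit 156 and 51. Cutoffs change how many cells enter, and level limits how many genes. The causes of the moves in these counts were not tested. The counts of higher genes kept within 1.5 times when members were chosen on a part of the UMIs and read in the remainder, at 242 in PHD2-KO and 176 in WT, and when the highest doublet scores were removed, at 220 and 167. Added after seeing the data, the WT cutoff in PHD2-KO gave 173 higher and 90 lower, and leaving out cells with a Mesp1 UMI gave 220 and 143 in PHD2-KO, of which 83 were among the 120 first called lower. Counting limits the scarce genes, such as Mesp1 in WT chaperone-high cells, with 2 UMIs.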

Other observations

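Some genes outside the secretory pathway had ratios to the rest that lay far apart in the libraries, and none of these differences was tested. Eras, which encodes a Ras protein of embryonic stem cells, was at 20 CPM in PHD2-KO chaperone-high cells, against 7.56 CPM in the PHD2-KO rest, and at 20.6 CPM in WT chaperone-high cells, against 15.8 CPM in the WT rest. Lama5, a laminin gene, was at 62.2 CPM in PHD2-KO chaperone-high cells, against 24.7 CPM in the PHD2-KO rest, and at 35.8 CPM in WT chaperone-high cells, against 26.3 CPM in the WT rest. Bst2 and the nucleoside transporter gene Slc29a1 were likewise called higher in PHD2-KO and not in WT.

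Lower in PHD2-KO and not called in WT were Lgals3, Phlda2, Fn1 and Sox4. Lgals3, the galectin-3 gene, was at 31.3 CPM in PHD2-KO chaperone-high cells, against 99.7 CPM in the PHD2-KO rest, and at 18.1 CPM in WT chaperone-high cells, against 24.4 CPM in the WT rest. Phlda2, an imprinted gene, was at 217 CPM in PHD2-KO chaperone-high cells, against 463 CPM in the PHD2-KO rest, and at 141 CPM in WT chaperone-high cells, against 162 CPM in the WT rest. Their level in the PHD2-KO rest was above that in the WT rest, by 4.09-fold for Lgals3 and 2.85-fold for Phlda2. G0s2, for an inhibitor of fat breakdown, was higher in the chaperone-high cells of both libraries, at 36.4 CPM in PHD2-KO chaperone-high cells, against 11.7 CPM in the PHD2-KO rest, and at 12.2 CPM in WT chaperone-high cells, against 7.42 CPM in the WT rest.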
